A study of Mus musculus with 24 samples.

Results

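The transcripts described here are those of 34 mouse genes that carry glucose to pyruvate, exchange pyruvate with lactate, move lactate across membranes, and admit pyruvate to the mitochondrion. They were taken as a named list of gene symbols, and all 34 were found among the 54232 genes counted. All 34 also passed the filter on low counts, which left 20275 genes. The tissue was the retinal pigment epithelium (RPE), the layer between the photoreceptors and the choroid, cut by laser capture from snap-frozen eyes of male mice 6 weeks old. The mice were wild type or labelled Per1-/-Per2Brdm1 (here "knockout"), which alters the circadian clock genes Per1 and Per2, and all were of the C57BL/6/J x 129 SvEvBrd background. Eyes were taken at circadian times CT19, CT22, CT1 and CT10, times placed around the daily peak at which the RPE engulfs shed outer segments, which gave 8 groups of 3 libraries. Of the 24 libraries, 5 pooled 2 eyes, 4 of them knockout and 1 wild type, and these carry joined numbers such as 3and5. The labels do not say that libraries came from separate animals, so p-values measure the spread between these libraries.

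Glycolysis splits glucose into pyruvate in the cytosol, and lactate dehydrogenase interconverts pyruvate and lactate. Photoreceptors are known for high aerobic glycolysis and lactate release, while the RPE passes glucose from the choroid to the retina and takes up and exports lactate. Monocarboxylate transporters carry lactate together with a proton. MCT3 (Slc16a8) is known as the RPE form of the basolateral side and MCT1 (Slc16a1) serves the apical side, and both need the chaperone basigin (Bsg). LDH subunits come as Ldha, associated with glycolytic tissues, and Ldhb, associated with lactate-using tissues. The mitochondrial pyruvate carrier brings pyruvate to the pyruvate dehydrogenase complex, which the Pdk kinases switch off.

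The upstream sequences below are shown for 4 members on which the results turn: the lactate dehydrogenase subunit and the transporter whose levels varied most, and the pair of transporters of the RPE. Each is the 250 bases before the first-listed transcription start in RefSeq on GRCm38.p6, 5′ to 3′ on the gene's strand, with every ACGTG or CACGT in capitals.

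Ldha, chr7:46845554-46845803, plus strand: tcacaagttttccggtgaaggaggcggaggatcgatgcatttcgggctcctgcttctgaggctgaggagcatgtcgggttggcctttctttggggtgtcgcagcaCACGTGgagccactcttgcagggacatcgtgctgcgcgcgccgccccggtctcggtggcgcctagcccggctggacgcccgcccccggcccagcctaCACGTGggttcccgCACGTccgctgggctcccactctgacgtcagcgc

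Slc16a3, chr11:120948817-120949066, plus strand: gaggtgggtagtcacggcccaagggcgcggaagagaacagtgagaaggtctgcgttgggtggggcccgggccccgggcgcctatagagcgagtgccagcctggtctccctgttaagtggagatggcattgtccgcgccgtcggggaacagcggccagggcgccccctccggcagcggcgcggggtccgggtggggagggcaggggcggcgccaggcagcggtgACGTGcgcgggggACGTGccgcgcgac

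Slc16a1, chr3:104638414-104638663, plus strand: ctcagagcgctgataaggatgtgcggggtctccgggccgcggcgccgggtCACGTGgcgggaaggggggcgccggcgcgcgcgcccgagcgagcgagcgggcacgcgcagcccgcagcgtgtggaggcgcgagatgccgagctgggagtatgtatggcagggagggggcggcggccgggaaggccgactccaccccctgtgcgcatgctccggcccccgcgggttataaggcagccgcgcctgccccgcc

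Slc16a8, chr15:79254749-79254998, minus strand: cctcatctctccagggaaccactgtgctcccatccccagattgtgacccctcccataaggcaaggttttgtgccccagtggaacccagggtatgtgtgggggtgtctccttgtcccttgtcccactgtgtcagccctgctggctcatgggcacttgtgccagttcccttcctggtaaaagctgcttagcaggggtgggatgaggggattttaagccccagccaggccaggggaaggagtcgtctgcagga

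The hexamer CACGTG, the canonical E-box bound by CLOCK and BMAL1 among other factors, occurred at positions -145 and -48 from the Ldha start and at -200 from the Slc16a1 start. It was also found at -22 for Pfkfb2, -126 for Pdk2 and -136 for Pfkm. RefSeq windows were matched for 32 members. Of these, 5 held CACGTG, or 15.6%, against 6.05% of 27020 promoters of the same length, and 12 held ACGTG or CACGT, or 37.5%, against 16.6%. The search covered both strands; CACGTG is its own reverse complement and contains both 5-base runs, so the motifs overlap. A match describes letters in the window only. In the GENCODE M21 annotation of GRCm38 the Ldha gene spans chr7:46841475-46855627 and its window overlaps no exon, while the Slc16a3 and Slc16a8 windows reach a few bases into a first exon.

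Libraries held 16245067 to 32066263 counts, and levels are given as CPM, a count scaled to library size with TMM factors. The targeted genes were not uniformly lower in the libraries labelled knockout. At CT10 they were lower there without passing, Per2 at 96.7 against 137 CPM in wild type (-0.50 ± 0.31 on the log2 scale, adjusted p = 0.396) and Per1 at 95.8 against 130.6 CPM (-0.45 ± 0.32, adjusted p = 0.477). At the other times they were higher, Per2 by 2.06 to 3.05 and Per1 by 1.62 to 2.03, past the threshold except Per1 at CT19 (adjusted p = 0.059). On average over the times both were higher in the knockout, Per2 by 1.79 ± 0.16 and Per1 by 1.23 ± 0.16 on the log2 scale (adjusted p = 4.98e-07 and 9.78e-05, edgeR quasi-likelihood test), so every direction below is for libraries so labelled. Gene counts sum reads from inside and outside the altered parts of both genes, and so do not check the alleles. RPE markers were present: 14 of 15 were at 1 CPM or more in every library, Best1 being the exception, and their summed level was 36110 to 70530 CPM. The 19 rod markers were also present in every library, at a sum of 19530 CPM in WT_CT22 replicate 6 to 105700 CPM in KO_CT22 replicate 2. Their mean log2(CPM + 1) is used below as a rod score, and its group means were 10.36, 9.63, 11.03 and 10.04 in wild type and 10.83, 10.66, 9.79 and 10.35 in the knockout, at CT19, CT22, CT1 and CT10. In bulk RNA, fewer cells of a type and less RNA per cell cannot be told apart.

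Levels were compared between genes as CPM per kilobase of exon. The length is that of all annotated exons of a gene merged, not of the transcript in use, which was not determined. Bsg stood highest at 1861 (range 1181 to 2683 over 24 libraries), above Aldoa at 906 (555 to 1365), the aldolase that splits fructose 1,6-bisphosphate. Slc16a8 followed at 605, Slc2a1 at 376, Pkm at 251, Ldhb at 206, Slc16a1 at 182 and Ldha at 176 CPM per kilobase. The ranges of Ldhb (127.1 to 276), Slc16a1 (107 to 284) and Ldha (77.3 to 398) overlapped, so their order is not fixed beyond the spread. The lowest members were Slc16a3 at 1.94, Pdk4 at 1.02, Pfkfb3 at 0.996 and Slc16a7 at 0.346.

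**Figure D1:**
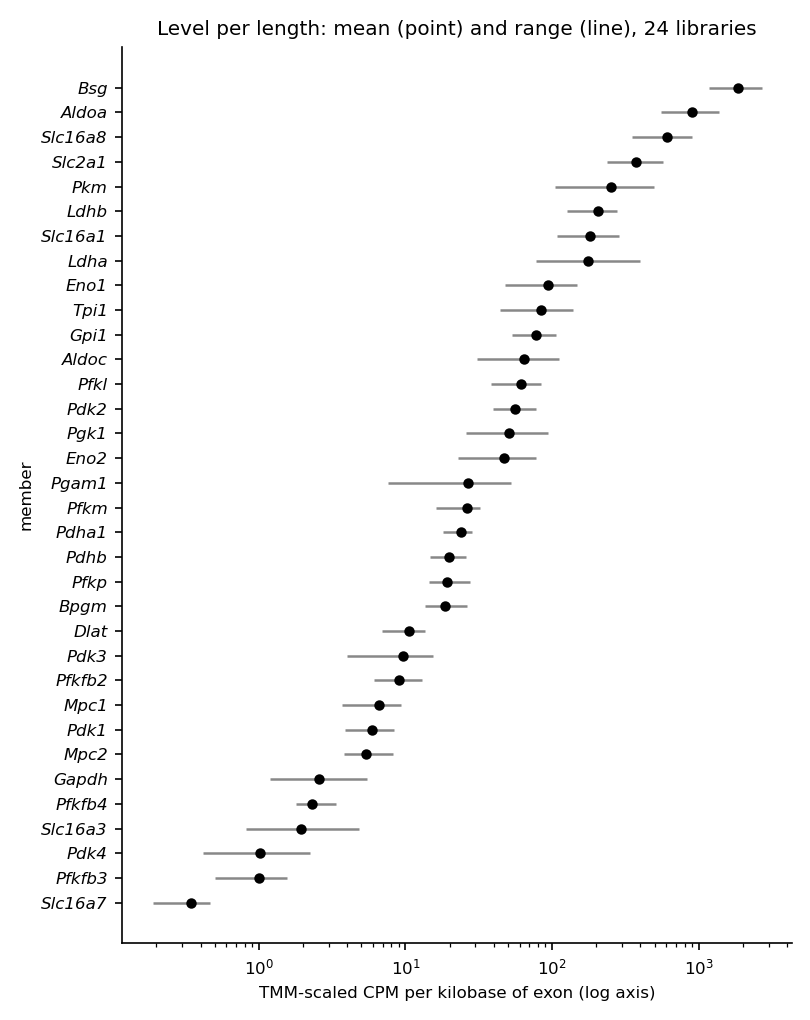
Level of the 34 members per kilobase of exon, TMM-scaled CPM on a log axis; points are means and lines the lowest to highest of 24 libraries. Bsg, Aldoa, Slc16a8 and Slc2a1 lead, and Ldha spans a wider range (77.3 to 398) than Ldhb (127.1 to 276).

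Each step with several genes had a leading form. Among the lactate carriers, Slc16a8 made up 76.8% ± 4.3 (SD over 24 libraries) of the 4 transporters per length and Slc16a1 22.9% ± 4.3, while Slc16a3 (MCT4) held 0.266% and Slc16a7 (MCT2) 0.0448%. The liver-type phosphofructokinase Pfkl held 56.6% ± 4.4, Pfkm 25.2% and Pfkp 18.2%. Aldoa held 93.6% of aldolase, Eno1 67.3% of enolase against 32.7% for the neuronal form Eno2, Pdk2 77.0% of the kinases, and Pfkfb2 72.6% of the bifunctional enzymes that set fructose 2,6-bisphosphate. The carrier pair Mpc1 (55.3% ± 6.5) and Mpc2 and the LDH pair, with Ldha at 44.1% ± 12.2, were nearer to even. Without division by length some orders were reversed. Ldha averaged 581 CPM and Ldhb 323, Mpc2 39.2 and Mpc1 13.8, and Pfkp 256 and Pfkm 88.2. The order within these pairs therefore rests on the exon length used. The LDH split had the largest SD of these families, and Ldha held 26.1% to 72.8% over the libraries. In the library with the lowest rod score Ldha held 26.5% of LDH per length, and in that with the highest 67.9%.

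Gapdh, the enzyme that oxidizes glyceraldehyde 3-phosphate, was counted at only 4.94 to 22.6 CPM, rank 29 of the 34 per kilobase. Its transcript has many annotated near-identical copies (at least 95% identity over 200 bp), of which 120 had a count, and together they took 34264 counts against 6293 for Gapdh itself, or 544%. The summed copies and Gapdh did not move alike: at CT1 the copies averaged 94.6 ± 41.6 CPM in wild type and 40.2 ± 4.3 in the knockout (SD, n = 3), while Gapdh itself averaged 9.15 ± 3.47 and 15.5 ± 6.1 CPM. Gapdh values are therefore uncertain throughout. Copies also took counts equal to 44.7% of Mpc1, 15.8% of Eno1, 12.4% of Pkm, 11.5% of Pgam1 and 3.23% of Ldha, and how the counting shared reads among copies was not given. Exons of other genes overlap 25 of the 2911 exon bases of Aldoa, 748 of 13401 for Pfkp, at most 359 of 3340 for Pfkm and at most 1416 of 7254 for Pfkfb2. For Gapdh the overlap is 68 of 4133 bases with Iffo1, whose counts equal 483% of those of Gapdh. Only reads in those bases could be shared with the neighbours (Fam57b for Aldoa, Pitrm1 for Pfkp, Gm26513 and Senp1 for Pfkm, Gm29427 and Yod1 for Pfkfb2, Iffo1 for Gapdh), and the strand setting was not given.

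The first comparison asked which members followed rod transcripts within a group of like libraries. The slope of each gene on the rod score was fitted beside the 8 group means, so that differences between libraries of 1 group alone inform it. Of the 34 members 15 passed (44.1%), against 13.2% of all genes tested: 14 rose with the score (7.4% of all genes) and 1 fell (5.85%). Ldha had the steepest slope, 0.97 ± 0.09 log2 units per unit of score (SE, adjusted p = 4.63e-08), a 1.96-fold rise.

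Ldha in wild type stood at 856, 438 and 413 CPM at CT19, 258, 581 and 273 at CT22, 1042, 729 and 638 at CT1, and 256, 299 and 339 at CT10. Ldha in the knockout stood at 609, 1124 and 649 CPM at CT19, 685, 1318 and 484 at CT22, 425, 333 and 310 at CT1, and 571, 538 and 770 at CT10. Within WT_CT22, replicate 3 stood above the other libraries, and it had the highest rod score of that group; the same held for KO_CT22 replicate 2 and KO_CT19 replicate 3and5.

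Slopes were steep along the lower part of glycolysis. Eno2 rose by 0.81 ± 0.09, the pyruvate kinase gene Pkm by 0.75 ± 0.13, the phosphoglycerate mutase Pgam1 by 0.70 ± 0.11 and the phosphoglycerate kinase Pgk1 by 0.50 ± 0.12 per unit of score, so that 4 of 6 members of this part passed. Eno1 (0.15 ± 0.13) and Gapdh (-0.01 ± 0.23) did not pass. In the upper part 6 of 7 passed: Aldoc (0.67 ± 0.10), Tpi1 (0.59 ± 0.09), Aldoa (0.43 ± 0.10), Pfkp (0.39 ± 0.10), Pfkl (0.34 ± 0.10) and Gpi1 (0.33 ± 0.08). Pfkm, the muscle-type phosphofructokinase, had -0.21 ± 0.11 and did not pass.

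Pkm in wild type stood at 1885, 1148 and 955 CPM at CT19, 823, 1029 and 525 at CT22, 2032, 2025 and 1216 at CT1, and 722, 627 and 1171 at CT10. Pkm in the knockout stood at 1509, 2172 and 1375 CPM at CT19, 1310, 2459 and 1075 at CT22, 938, 997 and 753 at CT1, and 1272, 843 and 1216 at CT10. Its highest libraries, KO_CT22 replicate 2 and KO_CT19 replicate 3and5, were the ones highest for Ldha. Eno2 in wild type stood at 366, 217 and 199 CPM at CT19, 159, 248 and 117.4 at CT22, 342, 362 and 244 at CT1, and 121.5, 107 and 152 at CT10. Eno2 in the knockout stood at 226, 336 and 221 CPM at CT19, 250, 366 and 146 at CT22, 158, 160 and 171 at CT1, and 162, 175 and 261 at CT10. The wild type and knockout ranges overlapped at CT19 and CT22.

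Slc16a3 in wild type stood at 20.8, 10.1 and 6.74 CPM at CT19, 5.93, 4.38 and 5.51 at CT22, 25.5, 22.5 and 11.2 at CT1, and 5.74, 6.6 and 6.71 at CT10. Slc16a3 in the knockout stood at 10.2, 11.95 and 12.1 CPM at CT19, 8.24, 17.5 and 5.25 at CT22, 5.21, 6.52 and 10.4 at CT1, and 8.1, 8.84 and 11.7 at CT10. MCT4 is known as an exporter of lactate from glycolytic cells, and at these counts (5802 in all 24 libraries) each value is coarse. Its slope was 0.79 ± 0.20 (adjusted p = 0.00908), and it did not pass without KO_CT22 replicate 2, KO_CT22 replicate 3 or WT_CT19 replicate 1 (adjusted p from 0.059 to 0.153). Of the regulators, Pfkfb2 rose by 0.55 ± 0.09 and the kinase gene Pdk3 by 0.48 ± 0.15 per unit of score, the latter not passing without KO_CT22 replicate 2 (adjusted p = 0.151). Neither Pfkfb3 (0.10 ± 0.24) nor Pfkfb4 (-0.10 ± 0.14) passed.

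The genes for RPE glucose and lactate transport lay on the other side of 0. Slc16a1 fell with the rod score, with a slope of -0.53 ± 0.15 (adjusted p = 0.0213). It did not pass without KO_CT19 replicate 3and5, KO_CT22 replicate 3 or WT_CT19 replicate 1 (slopes of -0.43 to -0.45, adjusted p from 0.0619 to 0.116). The slopes of Slc16a7 (-0.48 ± 0.23), the glucose transporter GLUT1 gene Slc2a1 (-0.36 ± 0.13), Slc16a8 (-0.25 ± 0.13), Ldhb (-0.25 ± 0.12) and Bsg (-0.24 ± 0.15) were negative and did not pass, with adjusted p from 0.0725 to 0.352. The mitochondrial carriers and the dehydrogenase genes had slopes of -0.06 (Mpc1) to 0.31 (Mpc2), and none of the 5 passed.

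Slc16a1 in wild type stood at 675, 1232 and 1211 CPM at CT19, 690, 697 and 964 at CT22, 667, 551 and 630 at CT1, and 634, 894 and 648 at CT10. Slc16a1 in the knockout stood at 1257, 557 and 762 CPM at CT19, 605, 601 and 1059 at CT22, 692, 898 and 474 at CT1, and 1238, 866 and 813 at CT10. In WT_CT19 and in KO_CT19 its lowest library was the one with the highest rod score of the group. Slc16a8 in wild type stood at 1478, 2053 and 1291 CPM at CT19, 1705, 1505 and 1517 at CT22, 1510, 929 and 1156 at CT1, and 1378, 1393 and 1330 at CT10. Slc16a8 in the knockout stood at 1663, 1189 and 1311 CPM at CT19, 1130, 801 and 1611 at CT22, 1368, 1366 and 1262 at CT1, and 1360, 1211 and 1511 at CT10. KO_CT22 replicate 2, the library with the highest rod score, was the lowest of the 24. Slc2a1 in wild type stood at 1174, 1787 and 1569 CPM at CT19, 1402, 1330 and 1454 at CT22, 1343, 1025 and 1125 at CT1, and 1164, 1249 and 941 at CT10. Slc2a1 in the knockout stood at 1996, 1157 and 1353 CPM at CT19, 1052, 958 and 1721 at CT22, 1120, 1348 and 830 at CT1, and 1575, 1271 and 1656 at CT10. Slc2a1 and Slc16a8 overlapped between the genotypes at CT19, CT22 and CT1.

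**Figure D2:**
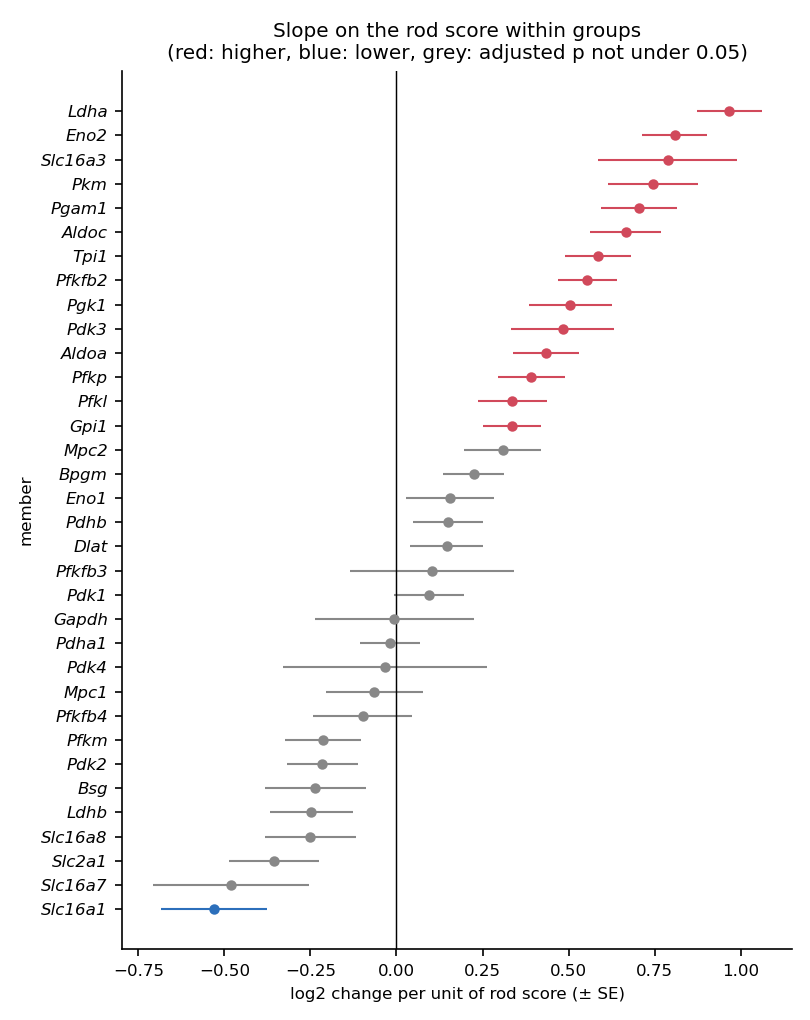
Slope of each member on the rod score within groups, in log2 units per unit of score, with SE; red points rose, the blue point fell, and grey points did not pass an adjusted p of 0.05. Ldha is at the top (0.97) and Slc16a1 at the bottom (-0.53).

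**Figure D3:**
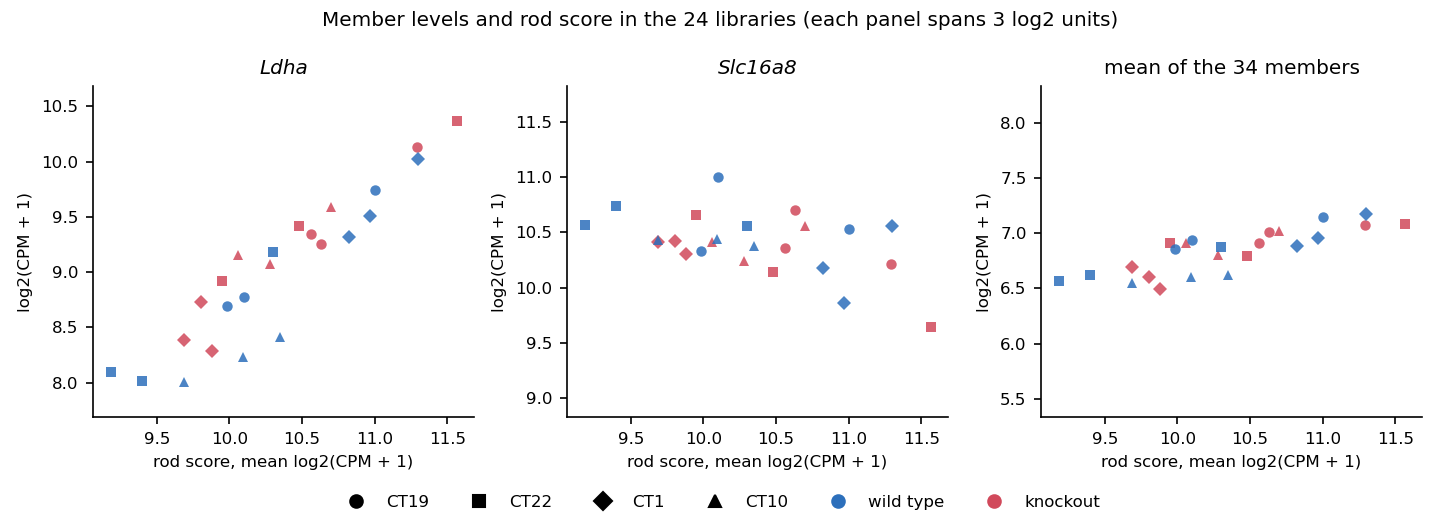
Rod score of each of 24 libraries (x) against the level of Ldha, of Slc16a8 and the mean of the 34 members (y), all as log2(CPM + 1), with each panel spanning 3 log2 units. Colour marks genotype and shape the circadian time. Ldha climbs from left to right and Slc16a8 does not. The mean of the members runs from 6.49 to 7.17, with 6.57 at the lowest rod score (WT_CT22 replicate 6) and 7.09 at the highest (KO_CT22 replicate 2).

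Other lists moved on the rod score as well. Of the rod markers, which define the score, 18 of 19 rose; of the endothelial markers 11 of 11 fell (median -0.77), of the mural markers 5 of 8, of the fibroblast markers 4 of 8, and of the RPE markers 4 of 15 (median -0.35). With a score of choroidal markers as a second term, 4 of the 15 members still passed for the rod score: Ldha (0.77), Eno2 (0.78), Pgam1 (0.83) and Pkm (0.92), while all genes called dropped from 2686 to 414. Slc16a1 then had a slope of -0.68 and an adjusted p of 0.252. Without WT_CT1 replicate 2 and KO_CT22 replicate 2, the library of each genotype with the highest rod score, 10 members passed, among them Ldha (0.98), Eno2 (0.88), Aldoc (0.76), Pkm (0.72), Pgam1 (0.68) and Slc16a1 (-0.70).

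The second comparison asked whether the genotypes differed. Averaged over the 4 times, 0 of the 34 members passed, against 0.375% of all genes tested. At an unadjusted p under 0.05 there were 2 members, Ldha (0.38 ± 0.18) and Pdk1 (0.18 ± 0.08), among 1434 of the 20275 genes tested. DESeq2 called 0 members. The differences ran from -0.35 (Pdk4) to 0.38 (Ldha), with a median of 0.04 against 0.02 for all genes. The 95% intervals of all 34 lay within 1 log2 unit of 0, the outermost bounds being -0.83 and 0.76.

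At single times the median difference of the members was below 0 at CT1, above 0 at CT22 and CT10, and near 0 at CT19. At CT19 0 members passed (0.0691% of all genes), with 1 at an unadjusted p under 0.05, 0 by DESeq2 and a median of -0.02. At CT22 0 passed (0.227% of all genes), with 10 at an unadjusted p under 0.05, 0 by DESeq2 and a median of 0.26, which was 0.09 without KO_CT22 replicate 2. At CT10 0 passed (0.0345% of all genes), with 14 at an unadjusted p under 0.05, 1 by DESeq2 and a median of 0.37. At CT1 1 member fell (0.533% of all genes passed), with 14 at an unadjusted p under 0.05, 8 by DESeq2 and a median of -0.35, which was -0.23 without WT_CT1 replicate 2. With 1 library left out the median ran from -0.11 to 0.17 at CT19 and so took either sign, and from 0.27 to 0.42 at CT10. The medians of all genes tested at these times were -0.01, 0.03, 0.09 and -0.01. Of the 20275 genes tested, 704 at CT19, 2568 at CT22, 3620 at CT10 and 3960 at CT1 had an unadjusted p under 0.05. The member counts at that level are to be read beside these. Those by DESeq2 have no such share beside them, so they are not read as results about the members.

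The member that fell at CT1 was Pgam1 (chr19:41911923-41918660, plus strand), whose enzyme turns 3-phosphoglycerate into 2-phosphoglycerate. Pgam1 in wild type stood at 80.6, 44.5 and 47.5 CPM at CT19, 31.0, 48.5 and 25.6 at CT22, 88.2, 69.2 and 64.6 at CT1, and 31.5, 32.5 and 36.2 at CT10. Pgam1 in the knockout stood at 67.9, 91.3 and 56.8 CPM at CT19, 55.6, 104 and 49.7 at CT22, 15.1, 28.7 and 27.0 at CT1, and 54.7, 45.4 and 66.2 at CT10. All 3 knockout libraries at CT1 lay below all 3 of wild type. The knockout mean was lower by 1.65 ± 0.30 on the log2 scale (adjusted p = 0.0117). It did not pass without KO_CT1 replicate 1, KO_CT1 replicate 5 or WT_CT1 replicate 2, when the count at CT1 was 0, and without KO_CT22 replicate 2 the count at CT1 was 5. The rod score stood at 11.03 in WT_CT1 and 9.79 in KO_CT1, and all 19 rod markers were lower in the knockout there (median -1.29, 17 at an unadjusted p under 0.05). Of 13 inner retinal markers 12 were lower as well (median -1.64, 10 at an unadjusted p under 0.05), and so were 6 of 6 muscle markers (median -2.93). The muscle difference rests on WT_CT1 replicate 2, where these markers summed to 440 CPM. Their sum was 11.8 and 17.2 CPM in the other WT_CT1 libraries and 4.66 to 29.05 in KO_CT1. Other lists leaned higher in the knockout at CT1, among them 11 of 15 RPE (median 0.19), 9 of 11 endothelial (median 0.32) and 8 of 9 immune markers (median 0.56). With the rod score as a term, the Pgam1 difference was -0.76 and its adjusted p 0.491. Rod scores at CT1 did not overlap between the genotypes (10.83 to 11.3 in wild type, 9.69 to 9.88 in the knockout). That value therefore extends a slope fitted within groups across a gap, and cannot tell genotype and rod score apart.

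The members whose libraries did not overlap between the genotypes are named next. At CT1 the knockout libraries lay wholly below the wild type ones for 12 members, among them Ldha, Pgam1, Slc16a3, Pkm, Eno2, Tpi1, Pgk1, Aldoa and Aldoc; this held for 14.6% of all genes. At CT10 they lay wholly above for 17 members (17.7% of all genes), among them Ldha, Pgk1, Pgam1, Tpi1, Pfkl, Slc2a1 and Dlat, and below for Gapdh alone (12.4% of all genes). At CT22 they lay above for Pgam1, Eno1, Pkm, Pdhb and Pdk1 (5 members, 8.01% of all genes), and at CT19 they were apart for Pfkfb4, Ldhb and Pdk2 (3 members, 9.27% of all genes). At CT10 the rod score was 10.04 in wild type and 10.35 in the knockout. Of all genes tested, 11249 of 20275 were higher in the knockout at CT10. So were 12 of 13 inner retinal markers (median 0.93, 8 at an unadjusted p under 0.05), whose sum was 1156 to 1330 CPM in wild type and 1742 to 2246 CPM in the knockout. The same held for 17 of 19 rod markers (median 0.35), 12 of 15 RPE markers (median 0.38) and 7 of 9 immune markers (median 0.56). Other lists leaned lower, with 1 of 8 mural (median -0.21), 2 of 8 fibroblast (median -0.22) and 4 of 9 cone markers (median -0.06) higher. The part of these lists in the members' differences was not tested. With the rod score as a term 1 member passed at CT10: Ldha, higher in the knockout by 0.77 ± 0.15 (adjusted p = 0.0258), among 88 genes in all.

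**Figure D4:**
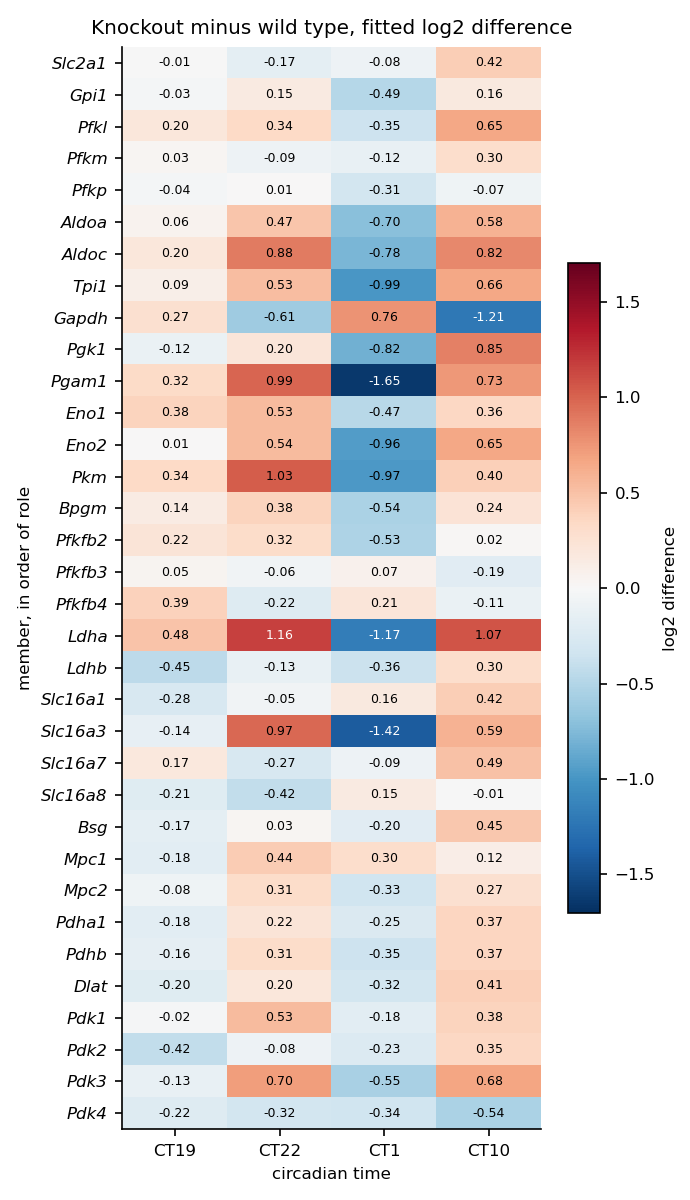
Fitted log2 difference, knockout minus wild type, for each member (rows, by role) at each circadian time (columns); red is higher and blue lower in the knockout. The CT1 column is blue for most members (Pgam1 -1.65, Slc16a3 -1.42, Ldha -1.17) and the CT22 and CT10 columns mostly red, with Gapdh opposite in all 3.

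The third comparison asked whether the genotype difference changed with time. In the test of any difference among the 4 genotype differences, 7 members passed, 20.6% of the 34 against 4.62% of all genes tested. They were Pgam1, Ldha, Slc16a3, Tpi1, Aldoc, Pgk1 and Gapdh. For this test each size is a log2 range, that is, the largest minus the smallest of the 4 differences: 2.64 for Pgam1 (adjusted p = 0.0107), 2.39 for Slc16a3 (0.0407), 2.33 for Ldha (0.0290), 1.98 for Gapdh (0.0454), 1.67 for Pgk1 (0.0382), 1.66 for Aldoc (0.0359) and 1.65 for Tpi1 (0.0287). Of these 7, 6 also rose with the rod score within groups, Gapdh being the other. The same overlap was not counted over all genes, so it is not read as a result about the members.

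Tpi1 in wild type stood at 362, 226 and 203 CPM at CT19, 154, 243 and 154 at CT22, 348, 309 and 243 at CT1, and 155, 150 and 183 at CT10. Tpi1 in the knockout stood at 258, 330 and 256 CPM at CT19, 207, 380 and 208 at CT22, 162, 169 and 121.96 at CT1, and 262, 217 and 291 at CT10. The triose isomerase was lowest of all groups in KO_CT1 and WT_CT10. Pgk1 in wild type stood at 190, 124.4 and 108 CPM at CT19, 86.3, 131.3 and 82.2 at CT22, 211, 134.4 and 120.6 at CT1, and 62.2, 67.0 and 71.8 at CT10. Pgk1 in the knockout stood at 132.7, 151 and 104 CPM at CT19, 93.2, 149 and 102 at CT22, 99.0, 108 and 57.9 at CT1, and 128.4, 106 and 127.7 at CT10. Both were above wild type in every knockout library at CT10 and below in every one at CT1. Aldoc in wild type stood at 341, 178 and 172 CPM at CT19, 99.8, 221 and 125.5 at CT22, 279, 250 and 211 at CT1, and 128.8, 109 and 152 at CT10. Aldoc in the knockout stood at 247, 323 and 223 CPM at CT19, 220, 362 and 238 at CT22, 143, 143 and 143 at CT1, and 197, 189 and 302 at CT10. The brain-type aldolase had the same separation.

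Gapdh in wild type stood at 7.75, 10.5 and 6.35 CPM at CT19, 15.6, 9.81 and 8.76 at CT22, 7.2, 7.09 and 13.2 at CT1, and 19.8, 14.5 and 15.3 at CT10. Gapdh in the knockout stood at 6.69, 11.99 and 11.0 CPM at CT19, 10.3, 6.86 and 5.3 at CT22, 12.3, 11.7 and 22.6 at CT1, and 4.94, 9.48 and 6.96 at CT10. Here the knockout libraries lay below wild type at CT10, opposite to the other 6, with the limit on Gapdh counts given above. Among the lists of cell markers, 14 of 19 rod markers also passed this test, 4 of 13 inner retinal and 1 of 15 RPE markers, and 0 of 11 endothelial markers. With the rod score as a term 0 members passed and 28 of all genes did. The ranges were then 1.97 for Gapdh, 1.27 for Pgam1, 1.03 for Pgk1, 0.75 for Slc16a3, 0.73 for Tpi1, 0.72 for Ldha and 0.66 for Aldoc, with adjusted p from 0.185 (Pgk1) to 0.762 (Slc16a3). The gap in rod score at CT1 given above limits these ranges too. Leaving out 1 library at a time gave 0 to 10 members. The count fell by more than 1.5 times without any library of KO_CT1 or WT_CT10, without KO_CT10 replicates 2 or 4, KO_CT19 replicate 4, KO_CT22 replicate 2, WT_CT1 replicates 2 or 3and6, or WT_CT22 replicates 1 or 6, and it was 0 without KO_CT1 replicate 5 or WT_CT1 replicate 2.

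The fourth comparison asked how the members varied over circadian time in each genotype. In wild type 2 members passed, against 0.947% of all genes: Slc16a3 with a log2 range of 1.90 (adjusted p = 0.0341) and Pgk1 with 1.21 (adjusted p = 0.0470). Both were highest at CT1, when the wild type rod score was highest, and Slc16a3 was lowest at CT22 and Pgk1 at CT10. The count was 0 or 1 in 19 of the 24 fits that each left out 1 library. It was within 1.5 times of 2 only without KO_CT1 replicate 5, KO_CT22 replicate 3, WT_CT1 replicate 5 or WT_CT22 replicate 3, and it was 7 without KO_CT22 replicate 2 and 8 by DESeq2. With the rod score as a term the ranges were 0.82 for Slc16a3 and 0.87 for Pgk1, and neither passed. Eno2 passed with that term (range 0.74, adjusted p = 0.0325, edgeR quasi-likelihood test) and not without it. Wild type rod scores at CT1 (10.83 to 11.3) did not overlap those at CT22 (9.18 to 10.3) or CT10 (9.69 to 10.35), which limits these ranges. Counts over all genes for the rod score fit and the DESeq2 fits are not given here. Calls in those fits are therefore not read as results about the members. In the knockout 0 members passed, as did 0.0% of all genes, and 1 member passed by DESeq2. At an unadjusted p under 0.05 there were 9 members, among 2364 of the 20275 genes tested.

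By fitted level, 15 members were highest at CT1 in wild type, 13 at CT19, 5 at CT10 and 1 at CT22, and 22 were lowest at CT10. In the knockout 17 were highest at CT19 and 26 were lowest at CT1. The mean log2(CPM + 1) over the 34 members was 6.98 ± 0.15 at CT19, 6.69 ± 0.16 at CT22, 7.004 ± 0.15 at CT1 and 6.59 ± 0.04 at CT10 in wild type, and 6.999 ± 0.08, 6.93 ± 0.15, 6.60 ± 0.10 and 6.91 ± 0.11 in the knockout (SD, n = 3). Libraries of the genotypes overlapped at CT19 and CT22 and were apart at CT1 and CT10. The mean of the 14 members that rose with the rod score ran from 6.93 to 8.26 over the libraries, and that of the other 20 from 6.12 to 6.55. This division was made on the slope in these same libraries and is a description. A wider spread of the 14 follows in part from how they were picked. The other 20 were also apart at CT10, at 6.19 to 6.32 in wild type and 6.37 to 6.47 in the knockout. At CT1 the other 20 overlapped between the genotypes.

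**Figure D5:**
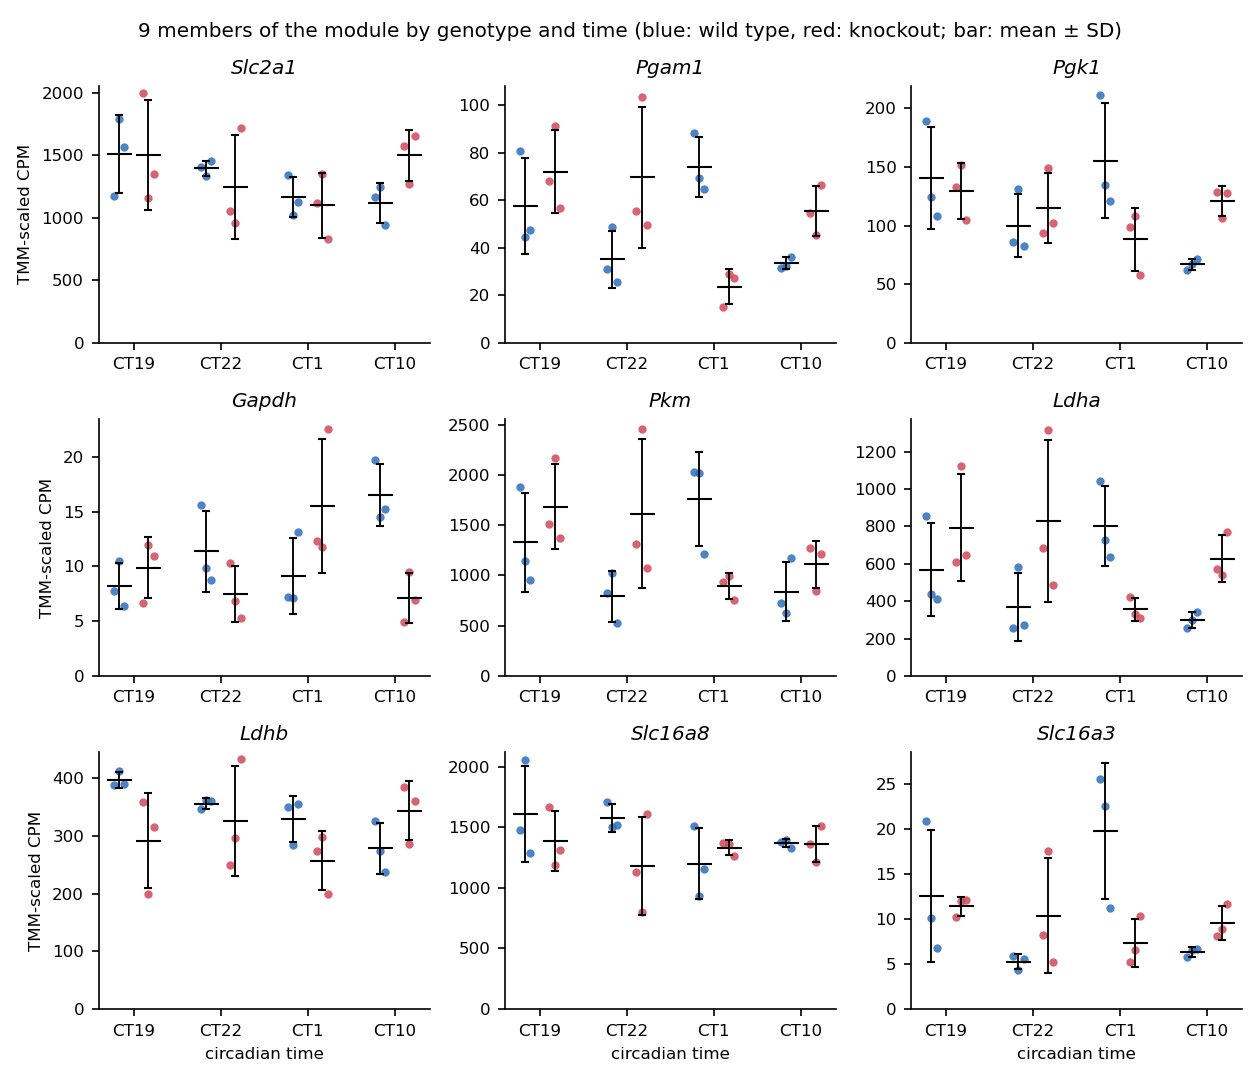
TMM-scaled CPM of 9 members in each library, by circadian time and genotype (blue wild type, red knockout), with mean and SD of 3 libraries. For Pgam1, Pgk1, Ldha and Slc16a3 the knockout points lie below wild type at CT1 and above at CT10, Gapdh is the reverse at CT10, and the genotypes overlap at CT1 for Slc2a1, Ldhb and Slc16a8.

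Aldoa, Pfkl, Gpi1 and Pfkp, of the early steps, rose with the rod score and showed no genotype call. Aldoa in wild type stood at 3712, 2757 and 2544 CPM at CT19, 1973, 2872 and 1892 at CT22, 3530, 2885 and 2855 at CT1, and 1721, 1855 and 1976 at CT10. Aldoa in the knockout stood at 2973, 3533 and 2857 CPM at CT19, 2499, 3975 and 2860 at CT22, 2103, 1970 and 1615 at CT1, and 2609, 2356 and 3364 at CT10. Pfkl in wild type stood at 516, 469 and 359 CPM at CT19, 316, 463 and 308 at CT22, 514, 404 and 376 at CT1, and 254, 269 and 292 at CT10. Pfkl in the knockout stood at 546, 563 and 432 CPM at CT19, 388, 529 and 459 at CT22, 356, 377 and 282 at CT1, and 411, 362 and 508 at CT10. For Aldoa the CT1 difference was -0.70 ± 0.24 and for Pfkl -0.35 ± 0.21, with adjusted p of 0.113 and 0.368. Gpi1, the glucose 6-phosphate isomerase, ran from 346 to 686 CPM over the libraries and Pfkp from 193 to 371. Pfkfb2 ran from 44.0 to 94.5 CPM and Pdk3 from 10.2 to 39.5.

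The genes of pyruvate entry had no genotype or time call. Pdha1 ran from 67.6 to 106 CPM and Pdhb from 57.0 to 100, the E1 subunits of the dehydrogenase, and Dlat, the E2 subunit, from 33.7 to 66.0. Their interaction ranges were 0.62 to 0.72, with none of the 3 past the threshold. Mpc1 ran from 7.70 to 19.4 CPM and Mpc2 from 27.9 to 60.1. Of the kinases, Pdk2 ran from 124.5 to 245 CPM, Pdk1 from 30.2 to 65.0 and Pdk4, which rises with fasting in many tissues, from 1.46 to 7.84. Bpgm, which makes 2,3-bisphosphoglycerate, ran from 48.9 to 94.7 CPM and fell just outside the interaction threshold (adjusted p = 0.0518), as did Pkm (adjusted p = 0.0503).

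Other genes of the pathway came from a list of 42, of which 37 were tested. For the rod score 7 passed, 5 upward, among them the hexokinases Hk2 (0.92 ± 0.10) and Hk1 (0.80 ± 0.08), the first step of glycolysis, and Tigar (0.62 ± 0.10). The hypoxia factor gene Epas1 (-0.52 ± 0.15) and the aldose epimerase Galm (-0.44 ± 0.12) fell. In the interaction 4 passed: Hkdc1 (range 2.27), Hk2 (1.98), Got1 (1.56) and Mdh2 (1.29), the last pair being enzymes of the malate-aspartate shuttle. Hkdc1, a further hexokinase, also fell on the genotype average by 0.77 ± 0.10 (adjusted p = 8.75e-05), at CT22 by 2.03 ± 0.21 (adjusted p = 1.29e-05), and varied over time in wild type (range 1.81). It stood at 82.1 ± 12.8 CPM in WT_CT22 and 20.0 ± 4.2 in KO_CT22.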

How the data were processed

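RNA-seq of laser-captured RPE was deposited by the authors as raw read counts per gene, whole numbers with no normalization, for 24 libraries in 8 groups of genotype and circadian time. The tools named in the submitters' processing notes are HTSeq 0.11, HISAT2 2.1.0, Trimmomatic 0.32 and Cufflinks, on build GRCm38.p6; strandedness, annotation version and what each tool did are not given in the sources used here. Of 54232 gene identifiers 54165 matched a symbol. Counts were tested in R 4.3.3 with edgeR 4.0.16: filterByExpr over the 8 groups (minimum count 10), TMM scaling, and a robust quasi-likelihood fit of 8 group means (16 residual degrees of freedom; 15 with the rod score). The threshold was an adjusted p under 0.05 (Benjamini-Hochberg, all 20275 genes); p-values are two-sided. Intervals are 95%. Scores used log2(CPM + 1).

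Near-identical copies were found with BLAST 2.17.0 against GENCODE M21 transcripts. Fits were tested on simulated data. Alternatives were RLE scaling, no low-count filter, a mean of at least 5 CPM, DESeq2 1.42.0, a replicate block, no pooled libraries, rod or choroid scores as terms, and leaving out each library. Leaving out the library of highest rod score in each genotype was chosen after seeing the data. The members and lists were chosen with earlier results of these data known. Values per library are given for some of the members past a threshold and some leading forms. Gpi1, Pfkp, Pfkfb2 and Pdk3 passed for the rod score and are given as ranges. Other pathway genes are named only where they passed. Depth was 16245067 to 32066263 counts, and errors cover the spread between libraries.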

Additional observations from a re-analysis of the deposited data

Results flagged for a closer look

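The 11 results here are genes whose genotype difference varied between circadian times in the interaction test (edgeR quasi-likelihood, adjusted p under 0.05), so that 1 time's difference does not stand for another's. Each value is the log2 range of the 4 knockout minus wild type differences. Among the 34 members these were Pgam1 at 2.64, Slc16a3 at 2.39, Ldha at 2.33, Gapdh at 1.98, Pgk1 at 1.67, Aldoc at 1.66 and Tpi1 at 1.65. Among the other genes of the pathway they were Hkdc1 at 2.27, Hk2 at 1.985, Got1 at 1.56 and Mdh2 at 1.29. Of the 19 rod markers 14 passed the same test, and the rod score was 11.03 in WT_CT1 and 9.79 in KO_CT1. With the rod score as a term, Gapdh had a range of 1.97 and Pgam1 one of 1.27, neither past the threshold.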

How the results depend on the processing

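For the rod score slope 13 to 17 of the 34 members passed over the 24 fits that each left out 1 library and applied the low-count filter anew; of the 15 that passed with all libraries, Slc16a3 and Slc16a1 did not pass in 3 of these fits each and Pdk3 in 1. With the choroid score as a second term 4 members passed, and the cause was not tested. The genotype average stayed at 0 members under every alternative run. At CT22, 4 members passed with no low-count filter, and 0 to 1 with 1 library left out. At CT1, 8 passed with no low-count filter and 8 by DESeq2, 0 without pooled libraries, 0 with the rod score and 0 with the replicate block, and 0 to 5 with 1 library left out. At CT10, 5 passed with no low-count filter, 1 by DESeq2 and 1 with the rod score. Calls among all genes also rose with no low-count filter, which left 32680 genes tested. They went from 46 to 808 at CT22, from 108 to 1556 at CT1 and from 7 to 999 at CT10. For time in wild type, 10 passed with no low-count filter, 8 by DESeq2, 7 with the choroid score, 1 with RLE scaling, 1 at a mean of at least 5 CPM and 1 with the rod score. It was 0 with the replicate block, 0 without pooled libraries, 0 without the library of highest rod score in each genotype, and 0 to 7 with 1 library left out. For time in the knockout, 6 passed with no low-count filter and 1 by DESeq2. For the interaction, 12 passed by DESeq2, 4 with the choroid score, 1 without pooled libraries, 1 without the library of highest rod score in each genotype, 0 with the rod score and 0 with the replicate block, and 0 to 10 with 1 library left out. Over all genes, calls for time in wild type were 192 in the main fit and 146 with RLE scaling. Member counts given here without a count over all genes of the same fit are not read as results about the members. The causes of these changes were not tested, beyond the fewer libraries of some fits. No member past the threshold for the rod slope or at CT1 changed direction under any alternative run. Sizes for time and for the interaction are ranges, which have no direction, so those calls could not be checked in this way. Of single values, the wild type CT10 mean of the members moved from 6.59 to 6.65 with RLE scaling.

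The replicate block left 7 residual degrees of freedom, and it left the rod slope at 15 members. The numbers share no stated origin. Over 30 pairs of libraries with the same number in different groups, deviations from the group means correlated with r of -0.21 to 0.42 and a median of 0.011, and 7 pairs were over 0.1, so the numbers were not taken as pairing.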
